A study of Rattus norvegicus with 8 samples.

Results

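Osteopontin and the genes that set where mineral forms in skeletal tissue were followed by RNA sequencing in primary cells from the rat nucleus pulposus, the gelatinous core of the intervertebral disc. The group was chosen by gene symbol from the deposited result table. Of 10 symbols asked for, 7 had a row among the 13613 listed genes: Spp1, Ibsp, Ucma, Alpl, Enpp1, Pth1r and Runx2. Mgp, Sp7 and Ihh had no row under those symbols and were not analysed here. The choice was made with results of the same knockdown against control contrast known, including the low level of Spp1 in the knockdown, so the differences of the 7 genes between groups are given as a description, and the standard errors and calls printed for them support nothing.

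The control group was 4 libraries of cells transduced with the vector PLKO1, and the TonEBP knockdown group was 4 libraries of cells transduced with a short hairpin RNA against TonEBP, a transcription factor that answers high tonicity and is the product of Nfat5. Cells of both groups had grown out of explants, had been kept in DMEM with 10% serum, and received 110 mM of added NaCl for 8 h before RNA was taken. All 8 cultures were therefore hypertonic and transduced, and a culture without added salt is not part of the comparison. Sets 1 to 4 each gave 1 control and 1 knockdown library, and nothing in the labels says whether a Set is an animal, a pool or a day. The labels do not say how many hairpins were used, and the knockdown was partial.

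Mineral grows where calcium phosphate crystals can nucleate and where inhibitors of crystal growth are scarce. Acidic phosphoproteins such as osteopontin bind crystal surfaces, vitamin K-dependent proteins such as matrix Gla protein and Ucma keep soft tissue free of mineral, and pyrophosphate, a potent inhibitor, is made by Enpp1 and destroyed by the alkaline phosphatase Alpl. Upstream, Runx2 drives osteoblast formation and cartilage hypertrophy, and the receptor Pth1r holds hypertrophy back. Calcified discs are a feature of degeneration, while healthy nucleus pulposus stays unmineralized.

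Spp1 and Ibsp had lower values in the knockdown and Ucma higher ones, and the 250 bases before their annotated starts are shown because these are the 3 matrix genes among the 7. The sequences come from RefSeq on build GRCr8, a different build from rn5, the one in the submitters' processing notes. They are printed 5′ to 3′ on the gene's strand, in lower case, with matches to searched motifs in capitals. Motifs were searched on both strands: the core of the tonicity element bound by TonEBP (TGGAAA), the Runx site (TGNGGT) and the AP-1 site (TGANTCA).
Spp1, chr14:5619805-5620054, minus strand: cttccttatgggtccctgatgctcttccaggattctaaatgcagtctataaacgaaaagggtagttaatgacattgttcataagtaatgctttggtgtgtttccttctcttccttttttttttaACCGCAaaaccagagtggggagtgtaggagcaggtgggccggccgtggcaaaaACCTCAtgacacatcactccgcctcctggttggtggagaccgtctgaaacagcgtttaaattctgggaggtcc
Ibsp, chr14:5757243-5757492, minus strand: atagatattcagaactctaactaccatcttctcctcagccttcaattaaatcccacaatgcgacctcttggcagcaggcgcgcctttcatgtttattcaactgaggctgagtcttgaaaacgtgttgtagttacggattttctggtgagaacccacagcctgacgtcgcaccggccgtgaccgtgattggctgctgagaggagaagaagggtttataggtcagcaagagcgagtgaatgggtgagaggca
Ucma, chr17:78212997-78213246, minus strand: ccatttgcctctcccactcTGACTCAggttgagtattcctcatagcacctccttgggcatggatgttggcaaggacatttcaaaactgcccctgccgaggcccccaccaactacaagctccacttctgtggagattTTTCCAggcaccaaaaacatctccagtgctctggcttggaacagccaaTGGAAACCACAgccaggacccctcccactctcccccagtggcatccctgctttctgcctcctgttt
The Spp1 window held 2 Runx matches, the Ibsp window held no match to any of the 3 motifs, and the Ucma window held 2 tonicity element cores, 1 Runx match and 1 AP-1 match. In Ucma a tonicity core and the Runx match overlapped. Such short motifs are common: among 33469 RefSeq promoter windows of the same length, 19.7% held the tonicity core, 41.0% the Runx site and 6.34% the AP-1 site. Of the other members, 3 had windows in the table: those of Alpl and Pth1r held no match, and of the 2 windows of Runx2 one held 2 Runx matches and the other 1 tonicity core. A match says only that these letters are present.

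Nfat5, the target of the hairpin, measured 1682, 2332, 1677 and 942 normalized counts in the control libraries of Sets 1 to 4. In the knockdown libraries of Sets 1 to 4 it measured 1094, 872, 459 and 414. Within every Set the knockdown library was lower, at 65.0%, 37.4%, 27.4% and 43.9% of its control, and the groups overlapped because the control of Set 4 lay below the knockdown of Set 1. Libraries held 9567488 to 15782202 reads on the listed genes. Of 15 nucleus pulposus markers 10 had a row, while T, Noto, Shh, Krt19 and Acan had none. Their summed level ran from 58.7 to 1257 reads per 1000000 reads on listed genes (CPM) in control libraries. In knockdown libraries it ran from 109 to 1694 CPM, and in both groups it was highest in Set 1 and lowest in Set 4. Most of these reads in Sets 1 and 2 came from Car3 and Ncam1. Not all markers followed this order: Krt8 was highest in Set 3 of both groups, and Cd24, Foxf1 and Pax1 in Set 2. Krt18, Car12, Col2a1 and Sox9 had few reads.

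Spp1 (ENSRNOG00000043451) encodes osteopontin, a secreted acidic phosphoprotein that binds hydroxyapatite and, through integrins and CD44, cells. Its normalized counts in the control libraries of Sets 1 to 4 were 46249, 47044, 53089 and 30073. In the knockdown libraries they were 23752, 15762, 9965 and 9378. Every knockdown library lay below every control library, with the highest knockdown value in Set 1 and the lowest control value in Set 4. Control libraries averaged 44114 ± 9846 and knockdown libraries 14714 ± 6679 (SD, n = 4), which left 33.4% of the control mean. Set by Set, 51.4%, 33.5%, 18.8% and 31.2% of the control value was left. The order of these 4 percentages, from Set 1 with the most to Set 3 with the least, differed from that of Nfat5 only in Sets 2 and 4, which changed places. The mean log2 difference was -1.66, with a standard error of 0.339 in limma and 0.2503 once the Set was a block. Spp1 reads made up 0.211% to 0.450% of a control library and 0.0729% to 0.188% of a knockdown library. In bulk RNA a smaller number of cells making a transcript and less transcript per cell cannot be told apart, which holds for every gene below as well.

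**Figure D1:**
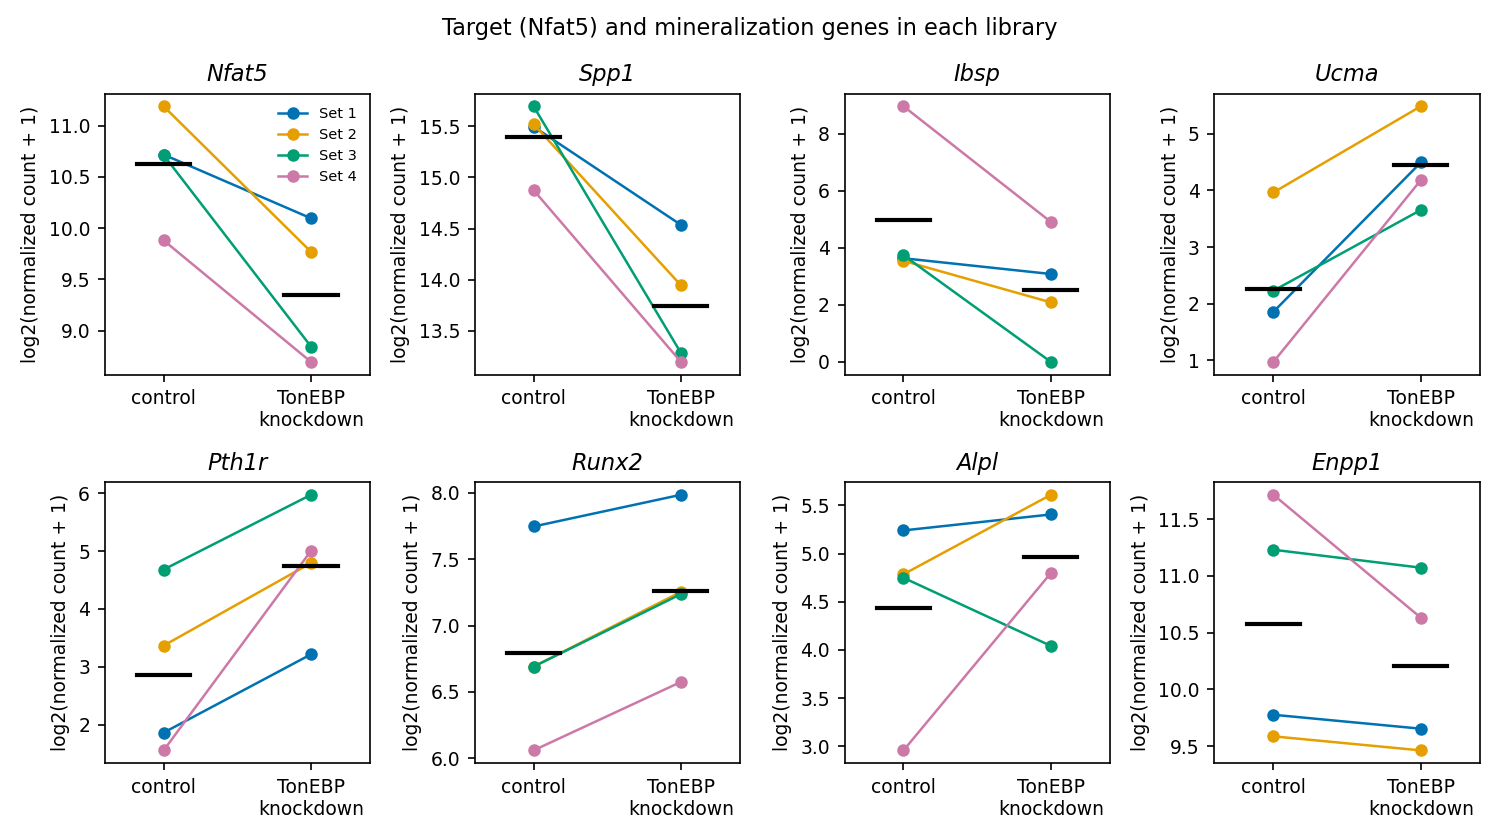
Normalized counts of Nfat5 and the 7 genes, as log2(normalized count + 1), in control and TonEBP knockdown libraries, with a line joining the 2 libraries of each Set and a black bar at each group mean. Each panel has its own vertical range. Spp1 is the member whose groups do not overlap, and the control library of Set 4 stands at 496 normalized counts for Ibsp while the other 3 control libraries lie between 10.6 and 12.3.

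Macrophages also make osteopontin, so their markers were read beside it. Of 12 macrophage markers 6 had a row, and Ptprc, Aif1, Lyz2, Cd163, Fcgr3a and Tyrobp had none. The summed level of those listed was 62.1, 48.35, 50.6 and 38.3 CPM in the control libraries of Sets 1 to 4. The knockdown libraries held 43.5, 35.2, 34.6 and 49.9 CPM, lower in Sets 1 to 3 and higher in Set 4. A mean log2 difference below 0 was found for 6 of 6, but Emr1, Itgam and Mrc1 had few reads. Cd14 gave the most reads among them, at a mean of 34.0 CPM. In Set 4 it measured 30.45 CPM in control and 46.9 CPM in knockdown. Of 7 osteoclast markers 2 had a row, and their sum was higher in the knockdown library of Sets 1, 2 and 4 and lower in that of Set 3. The part of these markers in the Spp1 result was not tested.

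Ibsp (ENSRNOG00000002158) encodes bone sialoprotein, an acidic matrix protein that can nucleate hydroxyapatite and is a marker of bone-forming cells. It measured 11.4, 10.6, 12.3 and 496 normalized counts in the control libraries of Sets 1 to 4. In the knockdown libraries it measured 7.45, 3.24, 0 and 29.0. The control library of Set 4 stood far above the rest, the knockdown library of the same Set was the highest of its group, and the groups overlapped because that library exceeded 3 controls. Control libraries averaged 132 ± 242 and knockdown libraries 9.91 ± 13.1 (SD, n = 4), and without the control library of Set 4 the control mean was 11.4 ± 0.848 (SD, n = 3). The values rest on 13, 8, 10 and 513 reads in control and 9, 4, 0 and 27 in knockdown libraries, and a count of 0 reads in Set 3 allows up to 3 reads, or 2.90 normalized counts. Within Sets 1 to 4 the log2 differences were -0.55, -1.45, -3.74 and -4.05, with a mean of -2.45 that was -1.12 without the control library of Set 4. Without both libraries of Set 4 the mean was -1.91. The difference was thus below 0 in all 4 Sets, but its size depended on which libraries of Set 4 were used. Other genes with high values in the control library of Set 4 were Mmp13 at 188423 and Bmp2 at 1529 normalized counts, both given below.

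Ucma (ENSRNOG00000017987) encodes a small vitamin K-dependent cartilage protein that binds calcium and restrains calcification. It had few reads: 2.63, 14.6, 3.70 and 0.966 normalized counts in the control libraries of Sets 1 to 4, from 3, 11, 3 and 1 reads. The knockdown libraries of Sets 1 to 4 held 21.5, 43.8, 11.6 and 17.2 normalized counts, from 26, 54, 12 and 16 reads. Every Set had more in its knockdown library, and the groups overlapped through the control of Set 2 and the knockdown of Set 3. Control libraries averaged 5.48 ± 6.20 and knockdown libraries 23.5 ± 14.1 (SD, n = 4), a ratio of 4.29. The within-Set log2 differences were 2.63, 1.52, 1.42 and 3.21. On these low counts the added pseudocount matters, and the mean of 2.20 was 1.49 with a pseudocount of 5.

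Enpp1 and Alpl act on pyrophosphate in opposite ways. Enpp1 (ENSRNOG00000013994), which splits extracellular ATP into pyrophosphate, measured 876, 768, 2400.5 and 3358 normalized counts in the control libraries of Sets 1 to 4. The knockdown libraries of Sets 1 to 4 measured 805, 705, 2152 and 1585. Sets 3 and 4 were high and Sets 1 and 2 low in both groups, and each knockdown library lay below its own control. The log2 difference was -0.12, -0.12 and -0.16 in Sets 1 to 3 and -1.08 in Set 4. Control libraries averaged 1851 ± 1251 and knockdown libraries 1312 ± 684.5 (SD, n = 4). Without the control library of Set 4 the mean log2 difference went from -0.37 to 0.01. Without both libraries of that Set it was -0.14.

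Alpl (ENSRNOG00000013954) encodes the tissue-nonspecific alkaline phosphatase that removes pyrophosphate. The controls of Sets 1 to 4 measured 36.8, 26.6, 25.9 and 6.76 normalized counts. Their knockdown partners measured 41.4, 47.9, 15.5 and 26.8. The knockdown value was above its control in Sets 1, 2 and 4 and below it in Set 3, and the groups overlapped widely. Means were 24.0 ± 12.5 and 32.9 ± 14.6 (SD, n = 4), and the mean log2 difference of 0.53 was 0.04 without the control library of Set 4.

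Pth1r (ENSRNOG00000020948) encodes the receptor for parathyroid hormone and its cartilage relative PTHrP. It measured 2.63, 9.30, 24.65 and 1.93 normalized counts in the control libraries of Sets 1 to 4, from 3, 7, 20 and 2 reads. In the knockdown libraries it measured 8.28, 26.8, 61.9 and 31.1, from 10, 33, 64 and 29 reads. Each Set had the higher value in its knockdown library, and the groups overlapped because the controls of Sets 2 and 3 lay above the knockdown of Set 1. Means were 9.63 ± 10.6 and 32.0 ± 22.2 (SD, n = 4). The log2 differences were 1.36, 1.43 and 1.29 in Sets 1 to 3 and 3.45 in Set 4.

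Runx2 (ENSRNOG00000020193) encodes the transcription factor that starts bone formation and cartilage hypertrophy. It measured 214, 102, 102 and 65.7 normalized counts in the control libraries of Sets 1 to 4. In the knockdown libraries it measured 252.5, 152, 150 and 94.4. Both groups had Set 1 highest and Set 4 lowest, and the groups overlapped for that reason. The log2 differences were 0.24, 0.56, 0.55 and 0.52, the narrowest spread over Sets among the 7 genes (SD 0.153), around a mean of 0.47. Group means were 121 ± 64.2 and 162 ± 65.9 (SD, n = 4).

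**Figure D2:**
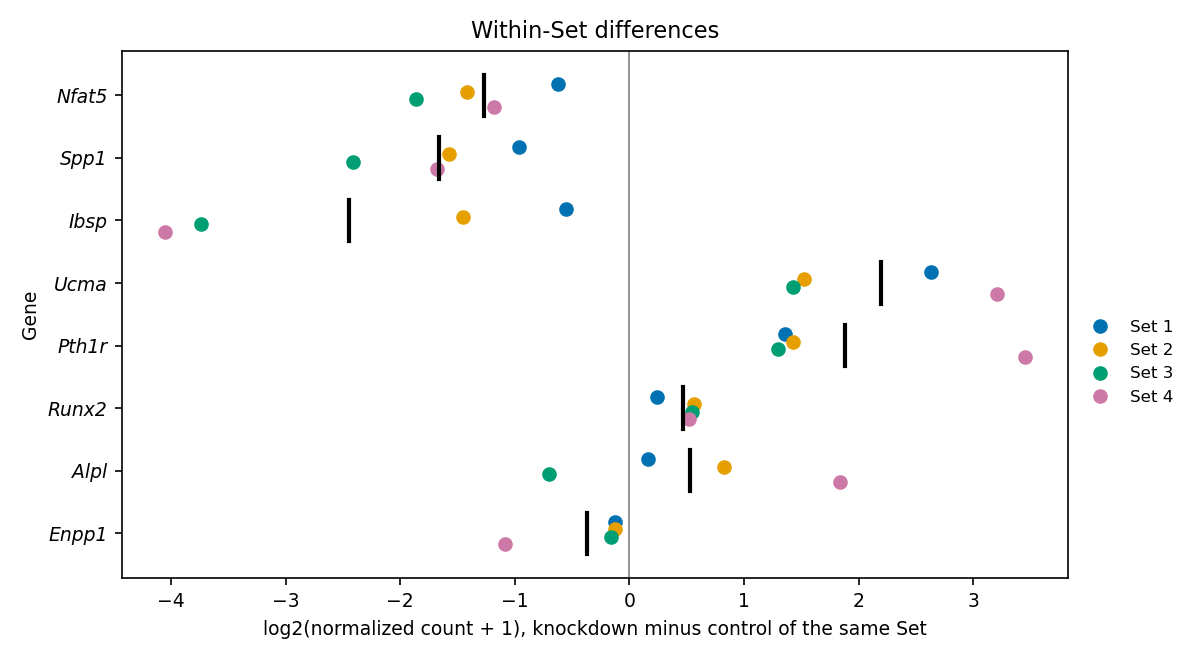
Difference between the knockdown and the control library of the same Set, on the log2(normalized count + 1) scale, for Nfat5 and the 7 genes, with a point for each Set and a black bar at the mean of the 4 Sets. Spp1, Ibsp and Enpp1 lie below 0 in all 4 Sets, Ucma, Pth1r and Runx2 above 0 in all 4, and Alpl on both sides.

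Taking the 7 genes side by side, 3 were lower in all 4 Sets, against 16.2% of the 12383 tested genes, and 3 were higher in all 4, against 17.0%. Only Spp1 of the 7 had groups that did not overlap, against 3.44% of tested genes in that direction and 2.9% in the other. The authors' deposited table calls Spp1 (log2 -1.44) and Ibsp (-1.34) lower, and Ucma (1.098) and Pth1r (1.02) higher, at an adjusted p under 0.05. It does not call Runx2 (0.41), Alpl (0.30) or Enpp1 (-0.34). These fold changes come from the authors' own fit and are not the mean log2 differences given above. Each of the 7 is smaller in size than the mean log2 difference of the same gene. The calls cover 4 of 7, where the table calls 9.31% of the 12251 genes with an adjusted p. Since the same contrast entered the choice of the genes, nothing is read from these counts. All 7 passed the filter on low reads, which a gene can pass mainly through the group where it is higher. Ucma and Pth1r had few reads in control libraries and Ibsp few in knockdown libraries. Passing therefore says nothing of their level in that group.

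The Set took the largest share of the variance in 5 of the 7 genes, and control or knockdown in the other 2. Over the 8 libraries the Set accounted for 88.6% of the variance of Enpp1 and 83.8% of that of Runx2, and for 64.2% in Ibsp, 55.03% in Alpl and 49.5% in Pth1r. It accounted for 33.2% in Ucma and 14.7% in Spp1. The median over all tested genes was 64.3% for the Set and 10.3% for control or knockdown. The share of control or knockdown was 77.8% for Spp1, 59.8% for Ucma, 41.0% for Pth1r, 26.2% for Ibsp, 15.0% for Runx2, 11.05% for Alpl and 5.11% for Enpp1. Ibsp, Ucma, Pth1r, Alpl and Enpp1 had their largest within-Set difference in Set 4, where 35.7% of tested genes had theirs, while Spp1 had its largest in Set 3, with 41.9% of tested genes, and Runx2 in Set 2, with 9.82%.

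**Figure D3:**
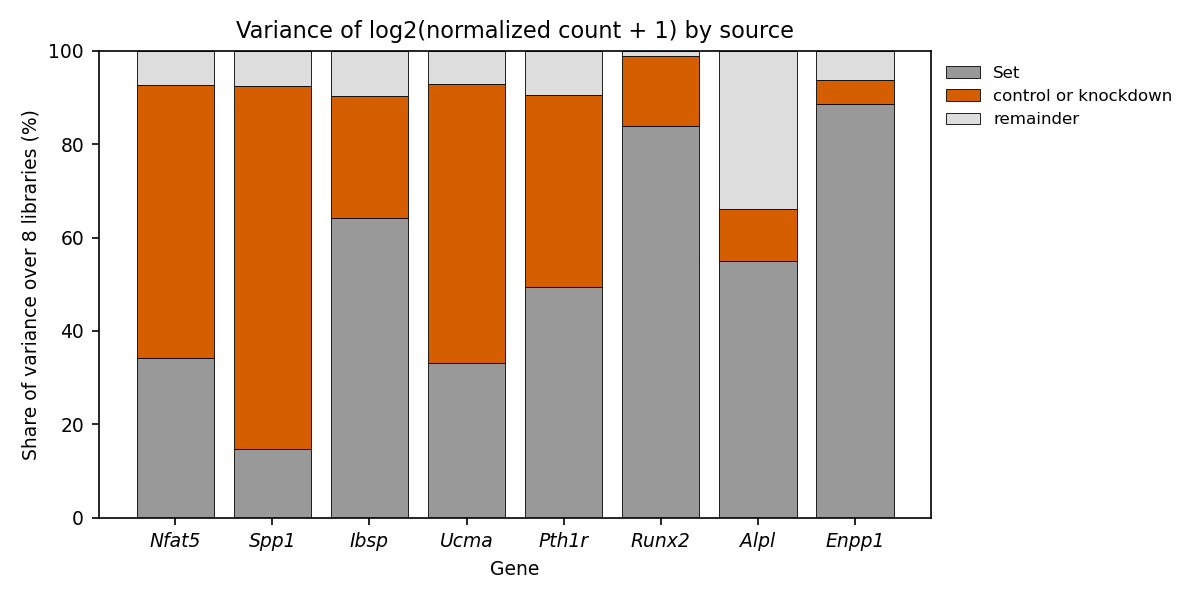
Share of the variance of log2(normalized count + 1) over the 8 libraries that lay between Sets (dark grey), between control and knockdown (orange) and in the remainder (light grey), for Nfat5 and the 7 genes. Spp1 has 77.8% between control and knockdown and 14.7% between Sets, while Enpp1 has 5.11% and 88.6%.

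The genes whose pattern over the 8 libraries was most like that of Spp1 were Ednrb, Nfat5, Pex2, Dnal1 and Lsm3, among 12093 tested genes with a symbol and a mean of at least 1 CPM. Likeness was the root mean square difference of log2 values after each gene was centred on its own mean, and it was 0.249 for Ednrb, 0.284 for Nfat5, 0.293 for Pex2, 0.333 for Dnal1 and 0.333 for Lsm3, against a median of 1.03. Ednrb, the endothelin receptor B gene, measured 804, 872, 1007 and 588.5 normalized counts in the control libraries of Sets 1 to 4. Its knockdown libraries measured 572, 204, 160 and 196. As with Spp1, the groups did not overlap and the smallest difference was in Set 1. Such shared traits follow from choosing Ednrb by its likeness over these same libraries. Nfat5 itself was the second gene in this order, and its log2 differences of -0.62, -1.42, -1.87 and -1.18 stand beside those of Spp1, at -0.96, -1.58, -2.41 and -1.68. The other members were far from Spp1, with distances from 1.13 for Runx2, 1.21 for Alpl and 1.31 for Enpp1 to 2.19 for Pth1r and 2.28 for Ibsp. All these values come from the same 8 libraries and say nothing of control of one gene by another.

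**Figure D4:**
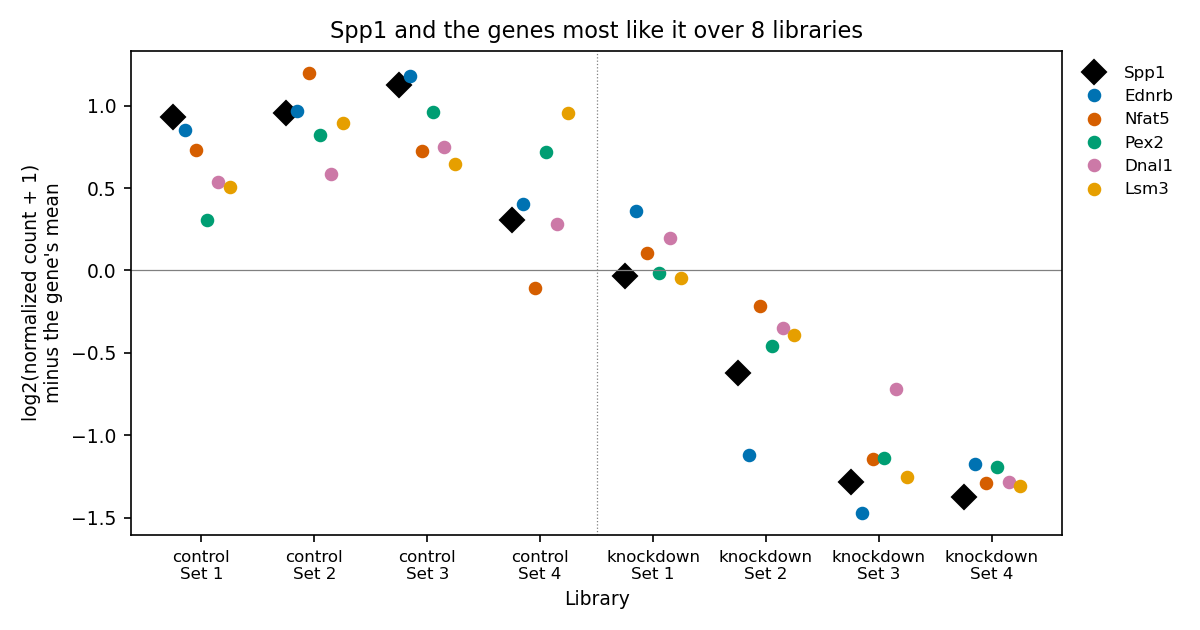
Log2(normalized count + 1) of Spp1 (black diamonds) and of the 5 genes most like it (circles), each minus its own mean, in the 8 libraries named on the horizontal axis. The 4 control libraries of Spp1 lie above its mean and the 4 knockdown libraries below it, with knockdown Set 1 nearest to the mean.

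Other genes of the same pathways were read from 7 lists. Adjusted over all genes, limma called 0 of their 63 tested members in either direction, where it called 0.00808% of all genes, and also 0 with the Set as a block (0.0% of all genes). At an unadjusted p under 0.05 there were 6 of the 63, against 9.5% of all genes, and with the block 26, against 23.1%. DESeq2 with the block called 7 of the 63 lower and 6 higher, against 9.18% of all genes in either direction. The lists were written with earlier results of these data known, so nothing is read from these counts. The counts below are those of the authors' deposited table, which calls 5.22% of its genes lower and 4.09% higher. Of the other small integrin-binding phosphoproteins, Dmp1, Dspp, Mepe and Enam, 0 of 4 had a row.

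Osteopontin receptors and modifying enzymes had 8 of 11 tested members below 0 and a median log2 difference of -0.66, against 0.0004 for all tested genes, of which 49.9% were below 0. Without the control library of Set 4 this median was -0.38 and without both libraries of that Set -0.34, and the medians within Sets 1 to 4 were 0.06, -0.42, -0.80 and -0.44. The authors' deposited table calls 2 of 11 lower and 0 higher. Itgb3, the beta chain of the main osteopontin-binding integrin, measured 35.05, 50.5, 24.65 and 220 normalized counts in the controls of Sets 1 to 4. The knockdown libraries held 28.15, 10.5, 3.87 and 18.2. The control library of Set 4 was again the highest, and each knockdown library was below its control, by log2 differences of -0.31, -2.16, -2.40 and -3.52. Itga8, an alpha chain that also binds osteopontin, was lower in all 4 Sets without overlap, with averages of 5583 ± 3133 and 1144 ± 760 in control and knockdown libraries (SD, n = 4). The partner chains Itgav and Itgb1 had log2 differences of 0.11 and 0.08, and the hyaluronan and osteopontin receptor Cd44 had -0.66. Fam20c, the kinase that phosphorylates osteopontin, had -0.72, and none of these 4 is called in the authors' deposited table. The most positive difference in the list, also not called there, was that of Itga9, another osteopontin-binding alpha chain, at a log2 difference of 1.76 on few reads. Its controls in Sets 1 to 4 measured 15.8, 25.25, 1.23 and 1.93 normalized counts, and their knockdown partners 24.8, 43.0, 15.5 and 19.3. It was higher in each Set, with overlap between the groups.

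Pyrophosphate and phosphate genes had 7 of 10 tested members below 0 and a median of -0.25. That median was -0.13 without the knockdown library of Set 4 and -0.14 without that of Set 3, and within Set 3 alone it was 0.04. The authors' deposited table calls 1 lower, Ankh (log2 -1.08), and 0 higher. Ankh, a membrane protein needed for the export of ATP and pyrophosphate, measured 2775, 3925, 5898 and 1302.5 normalized counts in the control libraries of Sets 1 to 4. The knockdown libraries measured 1804, 1272.5, 1978.5 and 656. The knockdown library was lower in every Set, by log2 differences of -0.62, -1.62, -1.58 and -0.99, and the groups overlapped. Limma gave Ankh an adjusted p of 0.505, and 0.0591 with the Set as a block. The phosphate transporters Slc20a1 and Slc20a2 had log2 differences of -0.44 and -0.25, and the ectonucleotidase Nt5e -0.30. The 3 tested members above 0 were the matrix vesicle phosphatase gene Phospho1 (0.79), the stanniocalcin gene Stc2 (0.73) and the vitamin D receptor gene Vdr (0.53), none of them called in the authors' deposited table. The other stanniocalcin gene, Stc1, had a log2 difference of -0.92 and is also not called there.

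Inhibitors of calcification and the enzymes that carboxylate them had 3 of 6 tested members above 0 and a median of 0.17, which was -0.23 without the control library of Set 1 and 0.39 without the knockdown library of that Set. The authors' deposited table calls 2 higher, Gas6 (log2 0.72) and Ggcx (0.55), and 0 lower. Ggcx, the carboxylase that activates vitamin K-dependent proteins such as Ucma, averaged 2387 ± 334 in control libraries and 3661 ± 943 in knockdown libraries (SD, n = 4), with log2 differences of 0.38, 0.44, 0.43 and 1.11 in Sets 1 to 4. Gas6, itself a vitamin K-dependent ligand, measured 3320 ± 1120 and 6021 ± 2354 (SD, n = 4), and was higher in all 4 Sets. The remaining members include Tnfrsf11b, which encodes osteoprotegerin, at a log2 difference of -1.30, and the vitamin K reductase Vkorc1 at -0.01. Neither is called in the authors' deposited table.

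Regulators of osteogenesis and hypertrophy split evenly, with 10 above and 8 below 0 of 18 tested and a median of 0.03. The authors' deposited table calls 1 of the 19 listed lower, the bone morphogenetic protein gene Bmp2 (log2 -0.99). Bmp2 measured 871, 395, 75.2 and 1529 normalized counts in the controls of Sets 1 to 4. Their knockdown partners measured 373, 242, 61.9 and 165. Each knockdown library was below its control, with the largest log2 difference, -3.20, in Set 4. Genes of the PTHrP and hedgehog pathway had 6 of 10 tested members above 0, a median of 0.08 and 0 calls in the authors' deposited table. Their 2 members with the most reads, Gnas and Cdon, had log2 differences of 0.06 and -0.33. Pthlh, which encodes PTHrP, and the hedgehog target Gli1 had no row.

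Effector genes of osteoblasts and hypertrophic chondrocytes went both ways, with 5 of 8 tested members above 0 and a median of 0.59, which was 0.20 without the knockdown library of Set 2 and 0.95 without the control library of that Set. The authors' deposited table calls 4 higher, including Col1a1 (log2 1.24) and Cthrc1 (0.97), and 2 lower, Mmp13 (-1.22) and Vegfa (-0.96). Col1a1 and Col1a2 are also markers of annulus cells and fibroblasts, of which 9 of 10 had a row (Tnmd had none). Their summed level was 11465, 23699, 18342 and 8149 CPM in the control libraries of Sets 1 to 4, and 20418, 39002, 17618 and 32495 CPM in the knockdown libraries. It was higher in the knockdown library of Sets 1, 2 and 4 and slightly lower in that of Set 3. Most of the reads came from Thbs2, at a mean of 17811 CPM. Of the 9 listed markers 3 had a mean log2 difference below 0. In CPM, Pdgfra and Thy1 were lower in the knockdown library of Sets 2 to 4 and higher in that of Set 1. The part of these markers in the collagen values was not tested. The collagenase Mmp13 measured 11785, 26541, 2147 and 188423 normalized counts in the controls of Sets 1 to 4. Their knockdown partners measured 3947, 11358, 349 and 9197. The control library of Set 4 carried most of the control mean, and each knockdown library lay below its own control. The secreted matrix gene Cthrc1 had log2 differences of 1.77, 1.13, 0.01 and 2.21, and Vegfa, the vascular growth factor gene, -0.79, -1.57, -1.76 and -0.36. The osteoblast markers Bglap, Dmp1, Ifitm5, Mepe and Omd had no row.

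**Figure D5:**
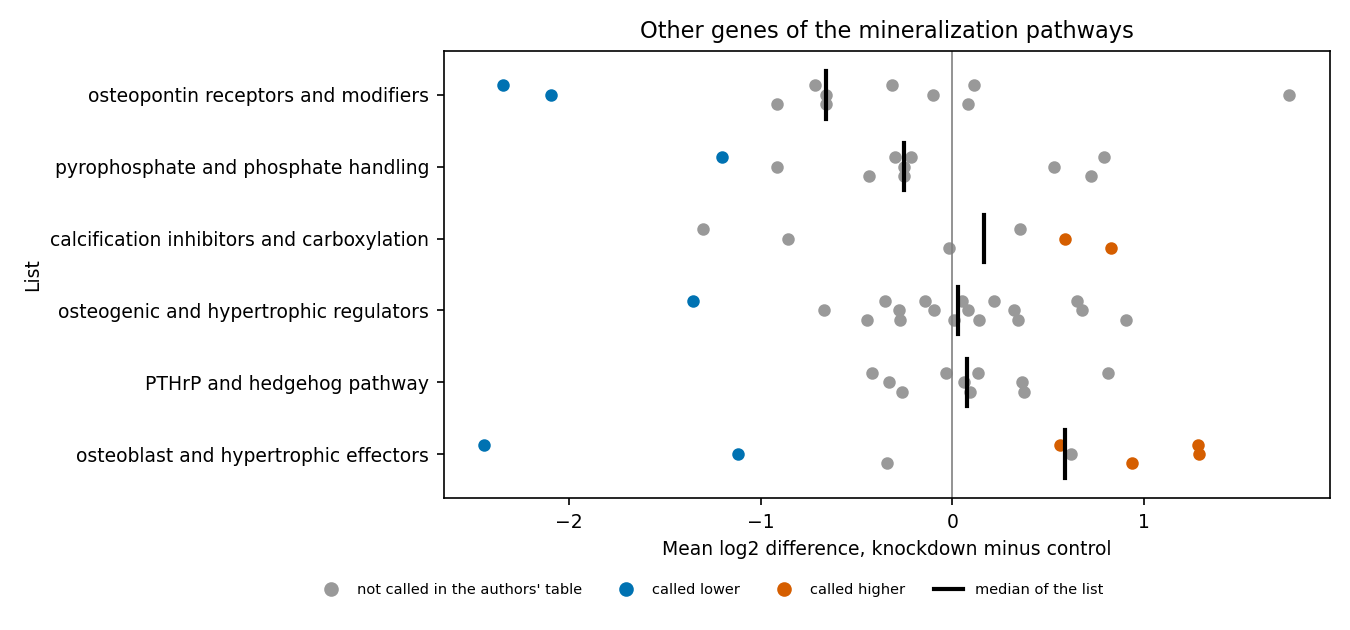
Mean log2 difference, knockdown minus control, of each tested gene in 6 lists of other mineralization pathway genes, coloured by its call in the authors' deposited table, with a black bar at the median of each list. Medians run from -0.66 for osteopontin receptors and modifiers to 0.59 for osteoblast and hypertrophic effectors.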

How the data were processed

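Libraries were single reads of 50 cycles, per the labels. The submitters' processing notes name Novoalign 2.08.01, DESeq2 1.10.1 and rn5 and do not state their roles. The read counter, annotation and strandedness were not given in the sources used here. Signal values deposited by the authors are normalized counts, 1 column per library. They were whole multiples of 1 step per library (100% within 0.001 reads), which gave back the reads. Each deposited log2 fold change and adjusted p-value is the authors' own, with 1362 genes lacking an adjusted p-value.

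Genes were kept by filterByExpr (12383) and tested with limma 3.58.1 (trend) on log2(value + 1), group as the term, 2-sided, Benjamini-Hochberg at 0.05. Fold changes on that scale are understated for low genes. Recovered reads were tested with edgeR 4.0.16 and DESeq2 1.42.0 in R 4.3.3. Same-numbered libraries deviated together (correlations of 0.681 to 0.805 for 4 Sets), so the Set numbers pair the libraries; the pairing comes from the titles. P-values measure the spread between these cultures, whose origin is not stated. Counts are not adjusted for gene length, so read numbers of different genes do not compare their levels.

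Members, lists and alternatives were chosen with earlier results of these data known. Named genes were Nfat5, the members, the 5 genes most like Spp1, its listed neighbours, and per list up to 4 called in the authors' table (else the 2 with the most reads); other genes named beside them were chosen after their values were seen. Intervals and limits for a count of 0 cover counting error only. Figures used matplotlib 3.10.9.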

Additional observations from a re-analysis of the deposited data

Results flagged for a closer look

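In the control group the highest library for Ibsp, that of Set 4 at 496 normalized counts, stood far from the other 3, with a gap to the next library of 0.996 of the group's whole range, above Dixon's critical value for 4 libraries. Of 14 pairs of a gene and a group it was the only one so far apart. By this measure chance alone sets about 1 group in 20 apart where values are normally distributed, which these untransformed counts need not be. The log2 difference of Ibsp was -2.45 with the control library of Set 4 and -1.12 without that library. Without both libraries of Set 4 the difference was -1.91.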

How the results depend on the processing

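Limma called 0 genes higher and 1 lower (Uap1, named after its value was seen) among 12383, and 1176 had an unadjusted p under 0.05. With the Set as a replicate block it called 0 in either direction (2856 with an unadjusted p under 0.05), and with any 1 library left out 0 to 0. Without both libraries of any 1 Set it also called 0. EdgeR called 0 higher and 1 lower without the Set. DESeq2 called 68 higher and 95 lower, and with the Set as a replicate block 509 and 644. For the 7 genes, 4 of 105 recomputed log2 differences, all of Runx2, moved by more than the spread over Sets. Each of these 4 left out 1 library and kept its partner of the same Set. Without both libraries of a Set, Runx2 stayed between 0.43 and 0.54. Enpp1 ran from -0.70 to 0.007 with 1 library left out, changing sign without the control library of Set 4, and Runx2 ran from 0.22 to 0.78 with 1 library left out. With 1 library left out, list medians ran from -0.87 to -0.38 for osteopontin receptors and modifiers, from -0.34 to -0.13 for pyrophosphate and phosphate handling, from 0.02 to 0.13 for the PTHrP and hedgehog pathway, from -0.23 to 0.39 for calcification inhibitors, from -0.086 to 0.21 for osteogenic regulators and from 0.20 to 0.95 for osteoblast and hypertrophic effectors. The osteogenic median was 0.10 without Set 2 and 0.10 without Set 3, and the effector median 0.35 with no filter on low values. The PTHrP and hedgehog median was -0.02 without Set 4. Of the 5 genes most like Spp1, 4 to 5 were shared under other scaling or pseudocounts. Ucma, Pth1r, Alpl and Ibsp rest on few reads, which limits their precision.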

Other observations

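Spp1 and Ibsp lie in 1 cluster on rat chromosome 14, in the order Spp1, Mepe, Ibsp, Dmp1 and Dspp in the RefSeq annotation. Of the 4 listed genes on each side of Spp1, the authors' deposited table calls Ibsp and none of the other 7. It calls 9.31% of all its genes with an adjusted p. Ibsp is a member chosen with results of this contrast known, so nothing is read from this count. Pkd2, the calcium channel gene next to Spp1, averaged 6835 ± 2094 normalized counts in control libraries and 5259 ± 1547 in knockdown libraries (SD, n = 4), with log2 differences of -0.06, -0.74, -0.13 and -0.55 in Sets 1 to 4. Nudt9 and Hsd17b11, on the other side of the cluster, had mean log2 differences of -0.13 and -0.26, and Klhl8 0.12. The genes Abcg3l1, Abcg3l3 and Abcg3 had -0.23, -0.03 and -0.31, and as near copies of one another their reads may have been split between them.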
